A study of Mus musculus with 12 samples.

Results

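The regions described here are peaks of N6-methyladenosine (m6A) in the RNA of wild-type macrophages that share at least 1 bp with a YTHDF2 peak of the same gene. They were chosen by the measured peak positions in both lists: the start and end of every m6A peak were set against those of every YTHDF2 peak carrying the same gene symbol. Of 10290 m6A peaks, 4120 met this rule, or 40.0% (95% Wilson interval 39.1 to 41.0). They lay in 2721 of 5447 genes with an m6A peak. Another 3073 m6A peaks lay apart from the YTHDF2 peaks of their gene, and 3097 lay in genes without any. Because the positions chose the members, the size of the overlap is a description and not a result.

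The cells were macrophages grown from bone marrow of C57BL/6 mice, either wild type (WT) or with a conditional knockout (cKO) of Ythdf2. Both genotypes had 7 days of M-CSF (20 ng/ml) and then 24 hours of LPS (100 ng/ml) with interferon gamma (20 ng/ml), which gives the inflammatory state called M1. The 12 libraries form 6 groups of 2: m6A pull-down and input for WT and for cKO, and YTHDF2 pull-down and input for WT. The overlap uses the WT pull-downs, and the RNA comparison uses the input libraries of both genotypes. The Cre driver, the age of the mice and whether replicates came from separate mice were not given in the sources used here, so the authors' p-values may measure technical spread alone.

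m6A is the most common internal modification of messenger RNA. A methyltransferase complex places it on adenosines in a short sequence context, mostly near stop codons and in long exons. YTHDF2 is a cytoplasmic protein that binds methylated RNA through its YTH domain and brings in the deadenylase complex, so that bound transcripts are shortened at the poly(A) tail and degraded. An m6A peak and a YTHDF2 peak at the same place therefore mark a candidate site of reading, although a peak is wider than a single adenosine and neither assay shows that both lie on the same molecule.

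Some properties of the files bear on every overlap. Each peak list is a single list for its group, so no value per library can be given and the overlap has no replicate check. Depth per library was not analysed here, as the files used hold means over libraries. All 17843 distinct peaks of the list deposited as YTHDF2 peaks carry names that begin with "m6a_peak", so whether that list was made from the YTHDF2 or from the m6A libraries was not settled by the sources read. It is called the YTHDF2 list below, by the name it was deposited under. Ythdf2 itself had 2 m6A peaks, none of them a member, and in the authors' deposited table its log2 fold change was 1.10 with an SE of 0.16 and an adjusted p of 2.1e-09. Since the genotype that serves as numerator is unstated, positive values are called the side of Ythdf2 and negative values the opposite side.

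No genome came with the data, and sequences could be read only where a RefSeq table holds them (GRCm38.p6, the coordinates of mm10). One such case is small RNA genes. Of all mature miRNAs, 10 from 5 hosts lay wholly inside a stretch shared by an m6A peak and a YTHDF2 peak on the same strand, with 10 distinct seeds. Of these, both arms of miR-671 and the 5p arm of each of the others are shown as named RNA products lying under both peaks. The m6A peak over miR-671 is listed under the symbol Mir671. The remaining 3p arms lie in the same stretches. Capitals mark the seed, bases 2 to 8.
mmu-miR-671-5p: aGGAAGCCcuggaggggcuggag
mmu-miR-671-3p: uCCGGUUCucagggcuccacc
mmu-miR-7030-5p: uGGGGAGGuggcugugcuaguc
mmu-miR-6897-5p: uGGGGGCAgugucacacgcuguu
mmu-miR-6948-5p: aGUUCAGAcaggacugugacac
mmu-miR-7092-5p: aAAGGCAAacucacagaaucauu
The miR-671 arms lay at chr5:24592132-24592154 and chr5:24592171-24592191 (plus strand), within an m6A peak at 24592011 to 24592535 that the list assigns to Mir671. This m6A peak reaches beyond both arms, and which transcript carried the signal was not tested. The YTHDF2 peak over them ran from 24590942 to 24592347 with a fold enrichment of 3.33. In Rab35, miR-7030-5p at chr5:115645578-115645599 lay under a YTHDF2 peak with its summit in the 3′ UTR and a fold enrichment of 2.01. The others lay in Uggt1 (3.22), Acin1 (3.67) and Fam50a (2.51), with these values being the fold enrichment of the YTHDF2 peak as the authors' list gives it. The files used give no value for the mature miRNA itself.

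The other case is the start of a transcript. The RefSeq windows hold the first 50 transcribed bases, and in 27 windows of 25 genes these bases met a shared stretch. The core GGACT, the core GGACA or the core GGACC of the m6A context was searched there. On the transcript strand 4 of the 27 windows held at least 1 (14.8%), against 15.4% of all 32851 windows. On the opposite strand none of the 27 did, which allows a share of up to 11.1% (counting error only), against 14.4% of all windows. In Tnf and Rbbp6 the core itself lay inside the stretch shared by both peaks, and these sites are shown with the core in capitals.
Tnf chr17:35201963-35201987, minus strand: ggacagcaagGGACTagccaggagg
Tnf chr17:35201973-35201997, minus strand: ccctcagcgaGGACAgcaagggact
Rbbp6 chr7:122970565-122970589, plus strand: cggccgctatGGACCcctgaccccg
Rbbp6 chr7:122970591-122970613, plus strand: ggggtcattcGGACTctaacgtg
The cores in Tnf, the tumour necrosis factor gene, began at bases 31 and 21 of the transcript, under an m6A peak of 89 bp and a YTHDF2 peak with a fold enrichment of 1.86. A matching core is a description of the sequence and does not show which adenosine was methylated.

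Most members met 1 YTHDF2 peak. Of the 4120, 3773 overlapped 1 peak, 318 overlapped 2 and 29 overlapped 3 or more, up to 5. Seen from the other list, 3733 of 17843 YTHDF2 peaks (20.9%) met an m6A peak, and 616 of them met more than 1, up to 10. The members were longer than the other m6A peaks, with a median genomic span of 400 bp against 250 bp for peaks apart from a YTHDF2 peak and 275 bp for peaks in genes without one. The share of m6A peaks that overlapped was 27.1% in the shortest quartile by span (50 to 125 bp), 39.2% and 54.1% in the next quartiles, and 39.7% in the longest (875 to 9999 bp), where a peak can cross introns.

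The shared stretch had a median of 239 bp (quartiles 116 and 389). It covered the whole m6A peak in 1580 members (38.3%), and in 542 (13.2%) the YTHDF2 peak lay inside a longer m6A peak. In 2029 members (49.2%, 95% Wilson interval 47.7 to 50.8) a YTHDF2 summit lay within the m6A peak. The 2498 members of up to 500 bp have the most precise position. In these, the nearest summit of an overlapping YTHDF2 peak lay a median of 175.5 bp from the m6A centre on the genome. It lay within 100 bp in 30.6% and within 200 bp in 55.6%. It lay 3′ of the centre in 47.7% of these members. In the 1622 longer members the summit lay 3′ of the centre in 66.6%, with a median offset of 241 bp along the gene. The files do not give the introns that a span includes, so part of such an offset can be intron.

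**Figure D1:**
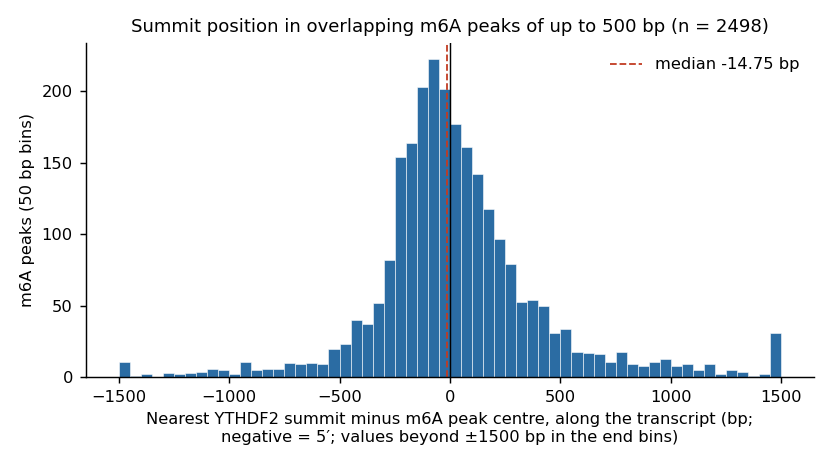
Distance in bp from the centre of each overlapping m6A peak of up to 500 bp to the nearest summit among the YTHDF2 peaks that overlap it. The histogram has 50 bp bins over 2498 peaks. Distances are on the genome in the direction of the transcript, with introns not removed. Negative values are 5′ of the centre and values beyond 1500 bp stand in the end bins. Since only overlapping YTHDF2 peaks were used, the rule itself favours summits near 0. The distribution has 1 mode near 0, with a median of −14.75 bp and 55.6% of peaks within 200 bp.

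At the limit of the rule, the smallest overlap was 1 bp. It was found among others in Clcn7 (chromosome 17, m6A peak 25161989 to 25162088, YTHDF2 peak 25160323 to 25161989), Dag1 and Klhl5. Just outside, peaks of Abhd4, Chd1 and Flrt2 abutted a YTHDF2 peak with a gap of 0 bp and so were not members. Of the members, 243 (5.90%) shared under 50 bp and 41 shared under 10 bp, while 233 m6A peaks lay apart by under 50 bp. Peaks apart from a YTHDF2 peak of their gene had a median gap of 2127 bp on the genome (quartiles 335 and 12413), so the edge of the rule touches few peaks.

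The m6A list is named for exomePeak2, a caller that searches exons, so a YTHDF2 peak chosen for meeting an m6A peak is bound to lie in exons more often. The shares by feature are therefore a description, with intervals for counting error only. Of 3666 with a summit in a listed feature, 46.8% lay in coding sequence, 40.0% in a 3′ UTR, 1.94% in 5′ UTRs and 11.2% in introns. Among 13955 YTHDF2 peaks without an m6A peak these shares were 32.8%, 38.9%, 2.04% and 26.2%. The Wilson intervals of the intron shares were 10.3 to 12.3 and 25.5 to 27, and those of coding sequence 45.2 to 48.4 and 32.0 to 33.5. Those of 3′ UTRs were 38.4 to 41.6 and 38.1 to 39.8. Within genes that carry m6A, YTHDF2 peaks that missed every m6A peak still had 27.7% of summits in introns. Against m6A peaks of up to 500 bp the order turned, with 48.5% in a 3′ UTR and 40.2% in coding sequence. Peaks within 1 gene are not independent.

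**Figure D2:**
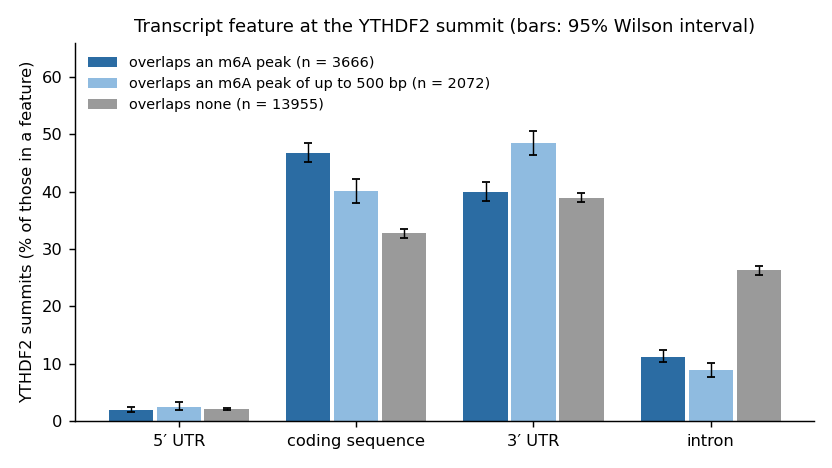
Share of YTHDF2 summits (%, of those in a listed feature) in each transcript feature, for peaks that overlap an m6A peak, peaks that overlap an m6A peak of up to 500 bp, and peaks that overlap none; bars give the 95% Wilson interval. Introns hold 11.2% of summits with an m6A overlap and 26.2% of those without.

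In 3890 members (94.4%) the shared stretch held at least 1 exonic base of the transcript that the YTHDF2 list names. The share was 93.3% for members of up to 500 bp and 96.2% for longer ones. For 99.7% of genes the list holds a single transcript, so a base is called exonic or intronic by that transcript alone. In Ahnak the members lie in 1 stretch of chromosome 19, from 9000804 to 9018613, and every summit over them is listed as intron.

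The boundary of coding sequence and 3′ UTR, where the stop codon lies, was more common under these pairs, and the exon-based m6A list bears on this count too, since the boundary is exonic. Of the 3733 YTHDF2 peaks with an m6A overlap, 39.4% spanned that boundary (interval 37.8 to 40.9), against 17.9% (17.3 to 18.6) of 14110 without one. Overlapped peaks were wider, at a median of 542 bp against 361 bp, and wide peaks span a boundary more often. The difference was also present among peaks of like width: 12.6% against 6.80% in the narrowest quartile, 27.1% against 16.2%, 39.2% against 21.2%, and 53.7% against 31.3% in the widest. In 866 members (21.0%) of 866 genes the m6A peak held a boundary that an overlapping YTHDF2 peak also spanned. Among members up to 500 bp this share was 15.8%. Boundaries held by the m6A peak alone were not counted. Examples named below are Isg15, Slc9a9, Sema4c, Tmsb4x and Zfp36l2.

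**Figure D3:**
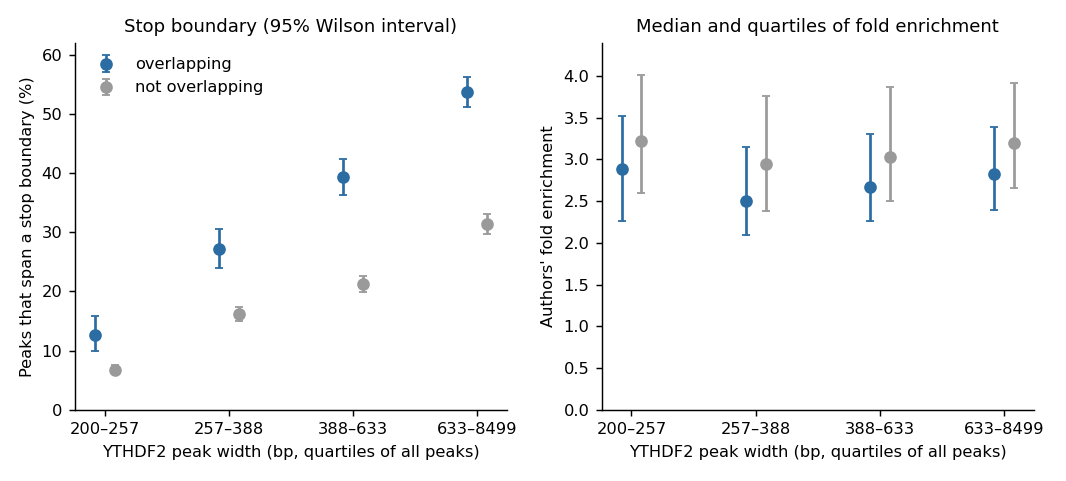
YTHDF2 peaks by quartile of width (bp), with an m6A overlap (blue) and without (grey): the left panel gives the percentage that spans a stop boundary with its 95% Wilson interval, the right panel the median and quartiles of the authors' fold enrichment. In each width quartile the overlapping peaks span a stop boundary more often, up to 53.7% against 31.3%, and have the lower median fold enrichment.

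The YTHDF2 peaks under m6A were the weaker ones by the authors' fold enrichment. This ratio had a median of 2.72 (quartiles 2.28 and 3.35) with an m6A overlap and 3.10 (2.52 and 3.89) without. It was lower in every width quartile, from 2.89 against 3.22 in the narrowest to 2.82 against 3.20 in the widest. Read the other way, 29.4% of the weakest quartile of YTHDF2 peaks met an m6A peak and 12% of the strongest. The −log10 q had medians of 14.3 with an m6A overlap and 12.9 without, but it was lower with an overlap in the narrower quartiles of width (12.2 against 12.9, and 9.63 against 10.4) and higher in the wider ones (12.7 against 12.3, and 17.7 against 16.4). A fold enrichment describes a peak within its list, and the part of gene abundance, given below, was not tested.

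Among genes with an adjusted p, the strongest pair was in Taf1, which encodes the largest subunit of the general transcription factor TFIID. Its m6A peak of 75 bp at 101596089 to 101596163 on chromosome X lay inside a YTHDF2 peak of 293 bp with a fold enrichment of 10.9 and a −log10 q of 69.7. Next came Nes, which encodes the intermediate filament nestin, at 8.62, with 3 m6A peaks inside a single YTHDF2 peak of 3898 bp. Nat10, an RNA acetyltransferase, had 8.58, the junction protein gene Cgnl1 8.21, and Cysltr2, a receptor of cysteinyl leukotrienes, 7.11 with an overlap of 4 bp. Ccdc85b, Myo18a, Taco1, Riok1 and Rrs1 lay between 6.93 and 6.75. Of these 10 summits, 6 were in an intron and 3 in coding sequence. Introns also had the highest median among all overlapped peaks, at 3.17 against 2.65 in 3′ UTRs.

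Members were not spread evenly over genes: 1844 genes held 1, 569 held 2 and 308 held 3 or more. Ahnak, a giant scaffold protein gene (chromosome 19, 8989284 to 9076935), held 18 of its 20 m6A peaks as members, under 6 of its 7 YTHDF2 peaks. Spen, a transcriptional corepressor, held 12 of 13, and the cytoskeletal linker Macf1 held 11 of 15. All 9 m6A peaks of Maf, a macrophage transcription factor, were members. Cep350 followed with 8, and Acin1, Ankrd50, Dst, Ranbp2 and the antiviral ubiquitin ligase Trim56 with 7 each. Together these 10 genes held 93 members. Of these 10 genes only Ankrd50 passed the test between genotypes, with 0.55 ± 0.16 and an adjusted p of 0.034 by the Wald test in the authors' deposited table. Over all tested genes 2.32% passed on either side, and 5.30% of genes with a member in the most abundant quartile.

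Genes with a member were abundant. Of the 2721, 2697 were found in the expression table and 2642 had an adjusted p; the other 55 had none. The median of their mean normalized counts was 1762, against 739 over all 10778 tested genes; these counts are not per length. By quartile of that count, 2.86%, 17.2%, 31.8% and 46.2% of tested genes held a member. Among genes with any m6A peak the share with a member went from 20.2% in the lowest quartile to 68.2% in the highest. The call shares between genotypes are set beside genes of like abundance below; the shares by summit feature and by gene list are not.

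In the comparison of genotypes, 77 of the 2642 genes with a member passed an adjusted p of 0.05 in the direction of Ythdf2 and 18 in the opposite one, in the authors' deposited table. That is 2.91% and 0.681%, against a background of 1.76% and 0.557% over all tested genes, or 3.6% against 2.32% for both sides. Genes with m6A apart from YTHDF2 had 1.48% and 0.411% (1218 genes), genes with m6A and no YTHDF2 peak 2.13% and 0.873% (1031), genes with a YTHDF2 peak alone 1.59% and 0.389% (3087), and genes with neither 0.857% and 0.571% (2800). The input libraries are the source of both this comparison and the abundance above. Within the most abundant quartile, 4.66% of genes with a member passed on the side of Ythdf2 against 3.24% of the other genes, and 0.643% against 1.17% on the opposite side. In the middle quartiles the shares on the side of Ythdf2 were 1.51% against 1.3% and 1.40% against 1.36%, both near the background. On the opposite side they were 0.648% (3 of 463 genes) against 0.493% (11 of 2231), and 0.817% (7 of 857) against 0.653% (12 of 1837). These shares were close as well and rest on few called genes. In the lowest quartile none of 77 genes with a member was called. Without adjustment, 263 and 71 genes with a member had a p under 0.05.

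Shifts were small. The median log2 fold change of genes with a member was 0.044 (quartiles −0.058 and 0.15), against −0.0054 over all tested genes, and 61.6% of values were above 0 against 48.7%. The median was 0.035 in genes with 1 member, 0.067 with 2 and 0.074 with 3 or more, while the median count in these sets went from 1560 to 2108 and 2422. In the most abundant quartile it was 0.068 with a member and 0.013 without. These values depend on the zero point: centring on the most abundant 25% of genes lowers every value by 0.039, which leaves the members at 0.0054 and all tested genes at −0.044. By the location of the summit, 4.69% of 1342 genes with a 3′ UTR summit passed on either side, 3.16% of 1330 with one in coding sequence and 2.69% of 335 with one in an intron. On the side of Ythdf2 these shares were 3.58%, 2.93% and 2.09%. On the opposite side they were 1.12% (15 genes), 0.226% (3 genes) and 0.597% (2 genes). By the highest fold enrichment over a gene's members, 4.39% passed in the weakest quartile and 2.72% in the strongest, with median counts of 3259 and 1037.

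**Figure D4:**
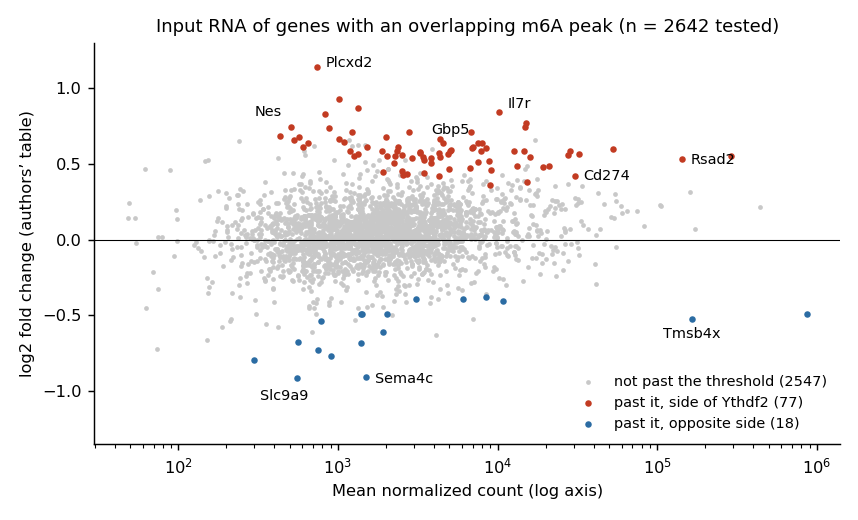
The authors' log2 fold change of input RNA (side of Ythdf2 positive) against the mean normalized count (log axis) for 2642 tested genes with an overlapping m6A peak; each point is a gene, and 77 passed the threshold above 0 and 18 below. Most points lie near 0, and none of the 77 genes in the lowest quartile of abundance passed.

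Changes reached 2-fold in 1 called gene with a member. This was Plcxd2, with 1.14 ± 0.18 and an adjusted p of 6.6e-07 by the Wald test in the authors' deposited table. Its m6A peak of 200 bp on chromosome 16 (45963838 to 45964037) lay inside a YTHDF2 peak with its summit in the 3′ UTR. Rassf8 was at 0.93 ± 0.20 in that deposited table of the authors, and Adra1a, the alpha-1A adrenergic receptor, at 0.87 ± 0.18 with its summit in the 5′ UTR. Il7r, the alpha chain of the interleukin-7 receptor, was at 0.84 ± 0.14 (adjusted p of 1.3e-06 by the Wald test) in the authors' deposited table. Its 2 members lay between 9506538 and 9508137 on chromosome 15, under YTHDF2 peaks with summits in coding sequence and 3′ UTR. Kdr, a receptor of vascular endothelial growth factor, was at 0.83 ± 0.19 in the authors' deposited table and had a stronger YTHDF2 peak than most, with a fold enrichment of 4.34.

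The remaining 5 by the same rule ranged from 0.77 to 0.71 in the authors' deposited table. They were the nonclassical MHC class I gene H2-Q6, Nes, the inhibitory receptor gene Cd300lf, the semaphorin receptor gene Plxna2 and the stress-response gene Gadd45b. H2-Q6 has near-identical paralogs, and how shared reads were counted was not given in the sources used here. Nes and Ankrd50 lost their calls without a filter on low counts (adjusted p 0.078 and 0.084) and with centring (0.055 and 0.066), and Ankrd50 was under 1.5-fold. The other 67 called genes on this side, including those counted in the gene lists below, ranged from 0.36 to 0.71 in the authors' deposited table.

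On the opposite side, Slc9a9, a sodium-proton exchanger of endosomes, was at −0.91 ± 0.18 (adjusted p of 1.4e-04 by the Wald test) in the authors' deposited table. Its m6A peak on chromosome 9 (95228892 to 95229291) held the stop boundary and lay inside a YTHDF2 peak with a fold enrichment of 5.06. Sema4c, a semaphorin, was at −0.91 ± 0.16 (adjusted p of 7.5e-06 by the Wald test) in the authors' deposited table, with an m6A peak of 950 bp wholly inside a YTHDF2 peak (4.72). The integrin Itga9 was at −0.77 ± 0.17 and the Golgi mannosidase Man2a2 at −0.73 ± 0.17 in the authors' deposited table; the overlap in Man2a2 was 5 bp. Camk1d, the prolyl hydroxylase gene Egln3, Rab3il1, the zinc and iron importer gene Slc39a14, the actin-binding thymosin gene Tmsb4x and the potassium-chloride cotransporter gene Slc12a7 ranged from −0.68 to −0.49 in the authors' deposited table. Without a filter on low counts Egln3, Slc39a14 and Tmsb4x lost their calls (adjusted p 0.058, 0.062 and 0.052), and Slc39a14, Tmsb4x and Slc12a7 lost theirs when at least 1.5-fold was asked for. The other 8 called genes ranged from −0.79 to −0.38 in the authors' deposited table.

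Gene lists show where the overlapping peaks fall by function. Among all m6A genes 50.0% held a member, and among all tested genes 24.5%. Of m6A genes in the most abundant quartile 68.2% did. Of 41 chromatin regulators 23 held a member, or 79.3% of the 29 with m6A. Of 40 NF-kB pathway genes 22 did, or 81.5% of 27. Lysosome and autophagy genes had 17 of 40, which was 89.5% of the 19 with m6A. Short housekeeping transcripts had few: 3 of 40 ribosomal protein genes (30.0% of the 10 with m6A) and 1 of 39 oxidative phosphorylation genes (12.5% of 8). All the remaining lists were above 50.0% of their m6A genes too. They went from 60.0% for glycolysis and for Toll-like and cytosolic receptors to 71.4% for the type I interferon response. Transcript length and abundance differ between these lists, and their part in these shares was not tested.

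**Figure D5:**
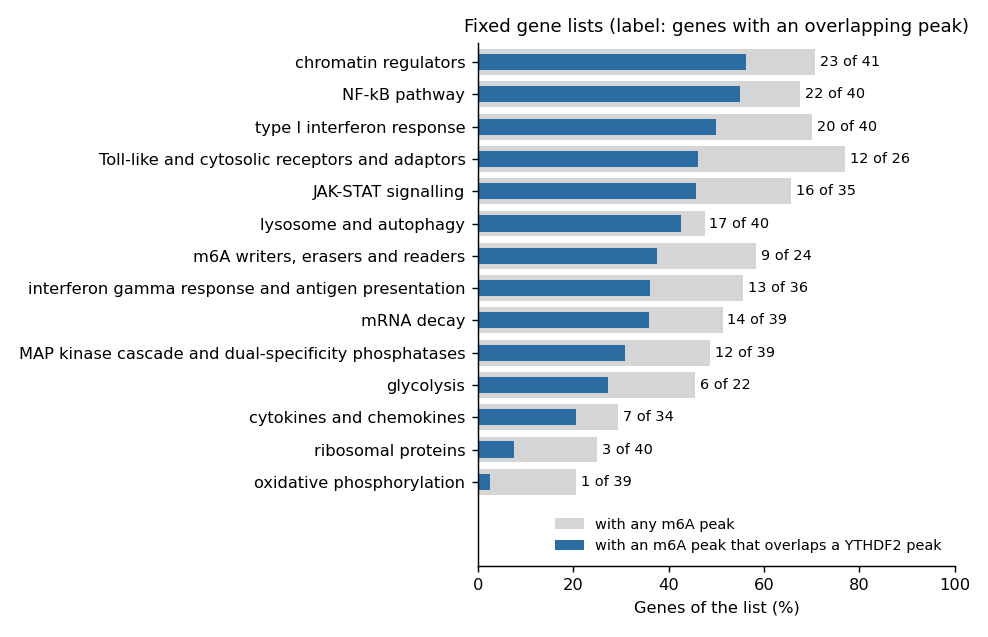
Percentage of the genes of each list with any m6A peak (grey) and with an m6A peak that overlaps a YTHDF2 peak (blue); the labels give the number of genes with an overlapping peak and the size of the list. The blue share goes from 56.1% of chromatin regulators to 2.56% of oxidative phosphorylation genes.

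The type I interferon response, the antiviral programme that follows interferon signalling, held the most called genes. Of its 40 genes, all tested, 28 had m6A and 20 held a member. Of these 20, 7 passed on the side of Ythdf2 and none on the other in the authors' deposited table, and all 20 values were above 0. Their median was 0.26, beside 0.25 and 10 calls for the whole list, so 3 calls were in genes without a member. Over all tested genes 1.76% passed on that side and 48.7% of values were above 0. Among genes with a member in the most abundant quartile, 4.66% passed on that side and 69.2% of values were above 0. The list was chosen with earlier results of these data known. Asking for at least 1.5-fold ended 6 of the 7 calls and left Cmpk2. Cmpk2, a mitochondrial nucleotide kinase, was at 0.60 ± 0.13 in the authors' deposited table; its m6A peak of 1522 bp on chromosome 12 (26477228 to 26478749) held the stop boundary and met 2 YTHDF2 peaks, with summits in coding sequence and 3′ UTR. Rsad2, which encodes viperin, was at 0.53 ± 0.13 in the authors' deposited table, with 2 members under a single YTHDF2 peak of 2805 bp.

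Ifit1 and Ifit3, which encode sensors of foreign RNA, were both at 0.56 in the authors' deposited table (SE 0.10 and 0.13). Each had 2 members, under YTHDF2 peaks with summits in coding sequence and 3′ UTR. In Ifit1 the m6A peak of 400 bp at 34647679 to 34648078 (chromosome 19) lay inside a YTHDF2 peak with a fold enrichment of 2.19. Oasl1 was at 0.58 ± 0.13 with 3 members, and the ubiquitin-like modifier Isg15 at 0.49 ± 0.12 with 1, in the authors' deposited table. Ifi44, at 0.47 ± 0.14 in the authors' deposited table, lost its call without a filter on low counts (adjusted p 0.070) and with centring (0.062). Among members not past the threshold, Mx1 was at 0.27 ± 0.12, Stat2 at 0.26 ± 0.12, Oasl2 at 0.21 ± 0.11 and Samhd1 at 0.03 ± 0.12 in the authors' deposited table.

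Of 36 genes of the interferon gamma response and antigen presentation, 20 had m6A and 13 held a member. Of these 13, 3 passed on the side of Ythdf2 and none on the other in the authors' deposited table (median 0.28, and 0.27 over 34 tested genes of the list). The whole list had 7 calls on that side, so genes without a member were called too. Over all tested genes 1.76% passed on that side. The guanylate-binding protein genes Gbp5 and Gbp3 were at 0.64 ± 0.12 and 0.58 ± 0.12, and Cd274, which encodes PD-L1, at 0.42 ± 0.10, in the authors' deposited table. Asking for at least 1.5-fold left the call of Gbp5 alone. The single member of Gbp3 spans 3466 bp on chromosome 3, and the YTHDF2 summits inside it are listed as intron, with fold enrichments of 3.24 and 3.43. H2-K1 at 0.32 ± 0.12, Igtp at 0.28 ± 0.12, Nlrc5 at 0.08 ± 0.13 and B2m at 0.07 ± 0.11 did not pass in the authors' deposited table. In B2m, the light chain of MHC class I, a YTHDF2 peak of 200 bp lay within an m6A peak of 3393 bp.

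Upstream of these genes, none of the 16 JAK-STAT genes with a member (of 35) passed in the authors' deposited table. Over all tested genes 2.32% passed on either side, and 5.30% of genes with a member in the most abundant quartile. In lists of this size, here and in the rest of this paragraph, the absence of a call is near these shares. Jak1 was at 0.21 ± 0.11, the receptor chain Ifnar1 at 0.09 ± 0.11, the feedback inhibitor Socs3 at −0.13 ± 0.11 and the phosphatase Ptpn6 at −0.25 ± 0.11, all in the authors' deposited table. Of 12 Toll-like and cytosolic receptor genes with a member (of 26), none passed in the authors' deposited table, where Tlr13 was at 0.27 ± 0.11, Tlr7 at 0.07 ± 0.14 and Tlr8 at −0.22 ± 0.15. Cd14, the coreceptor for LPS, had 4 members under 1 YTHDF2 peak and a wide error in the authors' deposited table (−0.19 ± 0.62). MAP kinase and dual-specificity phosphatase genes had 12 of 39 with a member and none past the threshold in the authors' deposited table. There the p38 kinase gene Mapk14 was at −0.20 ± 0.13, and Dusp1, Dusp3 and Map4k4 lay between 0.08 and 0.09.

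In the NF-kB pathway 2 of the 22 genes with a member passed in the authors' deposited table, both on the side of Ythdf2. Over all tested genes 1.76% passed on that side, and 4.66% of genes with a member in the most abundant quartile. Traf1, a signalling adaptor, was at 0.47 ± 0.14 and Cflar, an inhibitor of caspase-8, at 0.38 ± 0.11 in the authors' deposited table; both lost the call without a filter (adjusted p 0.092 for each) and with centring (0.078 and 0.091), and neither reached 1.5-fold. Cflar had 4 members, 3 of them touching a YTHDF2 peak of 3806 bp. Tnfaip3, which encodes the deubiquitinase A20, had 3 members, with the 1 at 19001810 to 19002909 on chromosome 10 inside a YTHDF2 peak, and was at 0.35 ± 0.13 (adjusted p of 0.14 by the Wald test) in the authors' deposited table. Tnip1 was at 0.24 ± 0.12, Tab2 at 0.11 ± 0.11 and Ikbke at −0.04 ± 0.11 in the authors' deposited table.

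Of 34 cytokine and chemokine genes, 10 had m6A and 7 held a member. That is 20.6% of the list, near the 24.5% of all tested genes. It is 70.0% of the genes with m6A, against 50.0% of all m6A genes. Csf1, which encodes the growth factor M-CSF, passed at 0.61 ± 0.18 in the authors' deposited table and lost the call without a filter (adjusted p 0.084) and with centring (0.063). Its m6A peak of 275 bp on chromosome 3 (107742548 to 107742822) lay inside a YTHDF2 peak with a fold enrichment of 3.82. The summit of that YTHDF2 peak was in the 3′ UTR. Tnf, whose sites at the transcript start are shown above, was at 0.24 ± 0.16, Ccl3 at 0.25 ± 0.17, Cxcl16 at 0.04 ± 0.11 and Tgfb1 at −0.05 ± 0.12 in the authors' deposited table. Of 29 tested genes of this list 5 passed, so 4 of its calls were in genes without a member. Over all tested genes 1.76% passed on the side of Ythdf2.

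The m6A machinery itself carried members. Of 24 writers, erasers and readers, 14 had m6A and 9 held a member: the writer subunits Wtap, Zc3h13, Rbm15 and Rbm15b, the demethylase Alkbh5, and the readers Igf2bp2, Hnrnpa2b1, Hnrnpc and Prrc2a. None of the 9 passed in the authors' deposited table, where Igf2bp2 was at 0.32 ± 0.15, Alkbh5 at 0.22 ± 0.13, and Hnrnpa2b1 and Prrc2a at −0.04 with SEs of 0.12 and 0.11. Over all tested genes 2.32% passed on either side, so the absence of a call among 9 is near that share. Alkbh5 had both of its m6A peaks inside YTHDF2 peaks, at 60538446 to 60538495 and 60554251 to 60554575 on chromosome 11. In Prrc2a 3 of 4 m6A peaks were members, with YTHDF2 fold enrichments up to 3.84.

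Genes of mRNA decay, the process that YTHDF2 feeds, had 14 of 39 with a member. Zfp36l2, which binds AU-rich elements and recruits the deadenylase complex, was the 1 that passed, at 0.55 ± 0.14 (adjusted p of 0.0091 by the Wald test) in the authors' deposited table. Its m6A peak of 1150 bp on chromosome 17 (84185206 to 84186355) held the stop boundary and lay wholly inside a YTHDF2 peak. Its change was under 1.5-fold. Over all tested genes 1.76% passed on the side of Ythdf2. Related genes with a member were Zfp36 at 0.13 ± 0.13, Btg1 at 0.10 ± 0.13, the decapping enzyme gene Dcp2 at 0.12 ± 0.13 and the ribonuclease gene Zc3h12a at −0.11 ± 0.12 in the authors' deposited table.

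None of the members among the other lists passed in the authors' deposited table. Over all tested genes 2.32% passed on either side, so the absence of a call in lists this small is near that share. Of the 23 chromatin regulators, which held 50 members, Brd2 had 6 and was at 0.12 ± 0.11 in the authors' deposited table, and Arid1a, Kdm2a and Ncor1 at 0.13, 0.08 and −0.0069. Of 17 lysosome and autophagy genes with a member, 13 lay above 0 in the authors' deposited table, with the protease genes Ctsb at 0.21 ± 0.12, Ctsz at 0.19 ± 0.11 and Ctsc at −0.20 ± 0.15 and the sterol carrier Npc2 at 0.19 ± 0.12. The 3 ribosomal protein genes with a member, Rpl14, Rps19 and Rpl23, lay at −0.35, −0.29 and −0.20 in the authors' deposited table (list median −0.27), and the 2 called genes of this list had no member. Of 6 glycolysis genes with a member, Gpi1 was at −0.27 ± 0.11, Hk1 at −0.11 ± 0.12, Slc16a3 at −0.09 ± 0.12 and Hk3 at 0.23 ± 0.15 in the authors' deposited table. Ndufb3, of the oxidative phosphorylation list, was at −0.04 ± 0.15 in the authors' deposited table.

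The cell type was checked against its markers in the means over all input libraries, since values per genotype are not in the files used. All 13 macrophage markers were tested, and their mean normalized counts summed to 531163. Those of neutrophil markers summed to 10201 (4 of 10 tested), B cell markers to 3815 (2 of 6), fibroblast and stroma markers to 1518 (4 of 7), T and NK cell markers to 253 (1 of 9), erythroid markers to 55.1 (1 of 5), dendritic cell markers to 41.8 and mast cell and basophil markers to 3.90 (none tested in either). Among macrophage markers, members lay in Mertk, Fcgr1, Cd14, Cebpb and Msr1, and further in 3 of 8 M1 activation genes, Cd86, Cd38 and Tnf, and in Csf3r of the neutrophil list. Among markers without a member, the macrophage list had 1 call on the side of Ythdf2 and 2 against it, the M1 and fibroblast lists 1 each on the side of Ythdf2, and the neutrophil list 1 on the opposite side. None of these markers with a member passed in the authors' deposited table, where Cd86 was at 0.25 ± 0.14, Cebpb at 0.18 ± 0.14, Fcgr1 at 0.15 ± 0.13, Msr1 at 0.07 ± 0.11, Csf3r at 0.06 ± 0.13 and Cd38 at −0.26 ± 0.64. In bulk RNA, fewer cells of a type and less RNA per cell cannot be told apart.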

How the data were processed

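Polyadenylated RNA was cut to about 100 nucleotides before m6A pull-down, and YTHDF2 was pulled down with 5 µg of antibody, per the labels' protocols. The submitters' processing notes name HISAT2, HOMER, ChIPseeker and mm10; no peak caller for YTHDF2 was given in the sources used here. The authors deposited, for YTHDF2 peaks, a ratio (fold enrichment), a −log10 q and a score that is 10 times this q value cut to a whole number. The authors' table of the input libraries holds, per the file headers, DESeq2's columns: a mean normalized count (signal), a log2 fold change with SE, a Wald score, and p-values adjusted over 10778 of 27013 genes. Its direction is not stated.

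After 3234 repeat rows were dropped from 45541, peaks were compared with pandas 2.3.3 in Python 3.11.15 as half-open intervals and printed 1-based; m6A starts may be off by 1 bp. A summit's feature was taken in the order 3′ UTR, coding sequence, 5′ UTR, intron. Calls are the authors' (adjusted p under 0.05). Genes were named by rule. These were the 10 highest YTHDF2 fold enrichments in genes with an adjusted p and the 10 genes with most members. Also named were the 10 largest called changes per side at a mean count of at least 500, and list genes called or most abundant. Members, 14 gene lists and 9 marker lists were chosen with earlier results of these data known. The design foresaw counts per library, which the files used do not hold. Overlap code was tested on simulated data. Alternatives were overlaps of 50 bp or 50%, −log10 q of 10, the median fold enrichment, spans up to 500 bp, summits inside, coding sequence first, 1.5-fold, no filter and centring.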

Additional observations from a re-analysis of the deposited data

How the results depend on the processing

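No paired analysis was possible because the files hold single peak lists and a finished comparison, with no value per library; leaving out replicates could not be done either. Asking for 50 bp of overlap gave 37.7% of m6A peaks as members, 50% coverage 25.1%, a −log10 q of 10 29.4%, a fold enrichment at or above the median 15.5%, and a summit inside the m6A peak 19.7%. Among m6A peaks of up to 500 bp it was 37.6%. Matching by Ensembl gene in place of symbol, an alternative chosen after seeing the data, gave 44.1%, so identical symbols miss some pairs.

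The median fold enrichment of overlapped YTHDF2 peaks was 2.78 with 50% coverage, 3.0 with the −log10 q limit, 3.6 with the limit on that ratio itself and 2.64 with summits inside. The 3′ UTR, coding and intron shares of summits were 48.4%, 41.6% and 7.84% with 50% coverage, and 48.5%, 40.2% and 8.83% (5′ UTR 2.51%) for spans up to 500 bp. With the fold limit they were 36.6%, 44.7% and 17.2% (5′ UTR 1.48%). The −log10 q limit gave 44.7% coding and 12.9% intron, summits inside 33.6% 3′ UTR and 52.8% coding, and placing coding sequence first 38.1% 3′ UTR and 48.8% coding. Coding sequence and 3′ UTR thus change order with the m6A span and coverage, while introns stayed below the 26.2% of other YTHDF2 peaks in all of these.

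Called genes with a member numbered 27 and 8 (side of Ythdf2 and opposite) with the fold limit, 45 and 8 with summits inside, and 32 and 8 at 1.5-fold or more (all tested genes 115 and 30). Spans up to 500 bp left 11 on the opposite side and no filter on low counts left 10, beside 54 on the other. Of the 95 calls, 64 remained with no filter and 75 with centring. Their median log2 fold change was 0.031 with the fold limit, 0.054 with summits inside and 0.0054 with centring. The share of calls on the side of Ythdf2 went from 81.1% to 75% with centring, while over all tested genes it went from 76% to 66.1%.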
